A study of Homo sapiens with 6 samples.

Results

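Genes of innate immune sensing were followed in MDA-MB-231 cells, a human triple-negative breast cancer cell line, after knockdown of the pseudouridine synthase PUS1. They were the Toll-like receptor genes TLR1, TLR2, TLR3, TLR4 and TLR6, the adaptor gene MYD88, the co-receptor genes CD14 and LY96, and the formyl peptide receptor gene FPR1. These 9 genes, of 60605 in the deposited table, were chosen from results of the same knockdown contrast, so their fold changes, errors and adjusted p-values are given as a description of where they fell and not as independent evidence. Libraries of poly(A) RNA came from 3 samples with a control hairpin (shControl) and 3 with a hairpin against PUS1 (shPUS1). The cells of both groups carried lentiviral hairpin vectors selected with puromycin, and the labels name no Toll-like receptor ligand or other agent for either group. The text does not name which of the hairpins against PUS1 the sequenced cells carried, and the deposited columns call these samples PUS1 knockdown 2 without tying that name to a hairpin. The labels call the libraries of a group biological replicates, and since it is not stated whether they came from separate cultures or selections, p-values measure only the spread between these samples.

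Toll-like receptors are membrane proteins that recognise microbial molecules and products of damaged cells. TLR4 binds bacterial lipopolysaccharide together with MD-2, the protein encoded by LY96, after CD14 has handed the lipid over, whereas TLR2 senses lipoproteins as a dimer with TLR1 or TLR6, and TLR3 senses double-stranded RNA inside endosomes. All of these except TLR3 signal through MyD88 to the IRAK kinases, TRAF6, NF-kappaB and the MAP kinases, and TLR3, like TLR4 from endosomes, uses the adaptor TRIF encoded by TICAM1. FPR1 is a G protein-coupled receptor for formylated peptides from bacteria and mitochondria, best known for guiding neutrophils.

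Transcripts of TLR4 were higher and transcripts of FPR1 were lower in the shPUS1 libraries, whereas the other members had overlapping groups or too few counts to test. TLR4 rose 7.49-fold from a very low level, and FPR1 fell 3.20-fold. Of 113 tested genes in 12 lists of related receptors, ligands, adaptors, signalling proteins and targets, only CSF3, which encodes the granulocyte growth factor G-CSF, was called, in the lower direction. A gene was called when edgeR's quasi-likelihood test gave an adjusted p under 0.05 (Benjamini-Hochberg) and the log2 fold change was 1 or more in either direction. Of the 9 members, 8 had enough counts to be tested, and 1 was called higher and 1 lower. Over all 14748 genes tested, 0.888% were called higher and 0.481% lower. Groups that did not overlap were found for the same 2 members and for no other tested one, and over all genes tested for 18.8% with shPUS1 higher and 17.3% with shPUS1 lower. Because the members were picked from this contrast, nothing is read from their counts against that background.

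Per-library values below are given for replicates 1, 2 and 3 in that order, as CPM, the estimated count scaled to a common library size after TMM adjustment. Library totals lay between 14241505 and 19625998 estimated counts, so that a count of 3 corresponded to between 0.157 and 0.204 CPM. The targeted gene was measured at 14.5, 27.5 and 12.1 CPM in shControl and at 6.57, 5.47 and 5.37 CPM in shPUS1. PUS1 was thus lower in every shPUS1 library, at a log2 fold change of -1.64 ± 0.32 (SE, n = 3 per group, adjusted p 0.0462 by edgeR). shControl replicate 2 stood apart, with a correlation of log2 CPM of 0.9505 and 0.9521 with the other shControl libraries against 0.981 between those, and it had the highest PUS1 level. Without it the log2 fold change of PUS1 was -1.20 with an adjusted p of 0.00311. The PUS1 call was lost without shControl replicate 1 (adjusted p 0.0905) and without shPUS1 replicate 1, 2 or 3 (0.208, 0.253 and 0.192). Among the members, shControl replicate 2 was the lowest control for 5 genes (TLR1, TLR2, CD14, LY96 and FPR1) and the highest for the other 4, so the log2 fold change of each member is given below with and without it.

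The cell line was checked by its markers. VIM, CD44, EGFR, SPARC, CAV1 and AXL were all above 1 CPM in every library, with a summed level of 4700 to 5990 CPM in shControl and 3750 to 3980 CPM in shPUS1, and VIM, CD44 and AXL did not overlap between groups, all lower in shPUS1, as were 17.3% of all genes (log2 fold changes of -0.50, -0.29 and -0.60, adjusted p 0.0873, 0.169 and 0.0623, in that order, by edgeR). A list of breast receptor and luminal genes had been written as absent from this line. ESR1 and PGR, the hormone receptor genes, stayed under 1 CPM in all 6 libraries, but GATA3 lay at 5.17 to 7.46 CPM, ERBB2 at 51.1 to 73.3 CPM and KRT8 at 253 to 406 CPM, so these went against the list's name, and the list summed to 336 to 486 CPM in shControl and 310 to 330 CPM in shPUS1. Since CD14, TLR4 and FPR1 are best known from myeloid cells, 12 myeloid markers were also read. TYROBP and SPI1 were at 0 in all 6 libraries, 8 of the 12 stayed under 1 CPM in every library, and PTPRC, which encodes the pan-leukocyte protein CD45, had 4 counts over all 6 libraries. Others of the list went the other way. Besides CD68, ITGB2 lay at 7.42 to 20.5 CPM, CSF1R at 0.668 to 4.04 CPM and CYBB at 0.219 to 1.15 CPM. The summed myeloid level was 95.7 to 109 CPM in shControl and 77.6 to 87.9 CPM in shPUS1, most of it from the lysosomal gene CD68, which lay at 83.0 to 89.5 CPM in shControl and 60.2 to 69.2 CPM in shPUS1 (log2 fold change -0.39, adjusted p 0.1). Among the lymphocyte and endothelial markers, CD3E, MS4A1 and NKG7 were at 0 in all 6 libraries, and the list summed to 4.72 to 16.8 CPM in shControl and 18.4 to 22.1 CPM in shPUS1. KDR, the endothelial VEGF receptor gene, made up most of that sum and showed a log2 fold change of 1.12 (adjusted p 0.13). Its groups did not overlap, higher in shPUS1, as were 18.8% of all genes tested. PECAM1 lay at 1.47 to 3.5 CPM, CDH5 at 0.157 to 2.79 CPM and VWF at 0.157 to 0.886 CPM over the 6 libraries. The part of these markers in the members' values was not tested. In bulk RNA, a change in the number of cells with a transcript and a change in RNA per cell cannot be told apart.

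Levels were compared between members as FPKM, which divides by exonic length. In shControl the order of mean FPKM was LY96 (8.55), MYD88 (7.45), CD14 (2.13), TLR2 (2.06), FPR1 (1.30), TLR6 (0.887), TLR3 (0.179), TLR1 (0.130) and TLR4 (0.015). The libraries of neighbours in this order overlapped for LY96 and MYD88, CD14 and TLR2, TLR2 and FPR1, and TLR3 and TLR1, so these pairs are not ordered beyond their spread. TLR4 was therefore the lowest of the 9 in control cells, while its adaptor MYD88 and its partner LY96 were at the top. In shPUS1 the order of mean FPKM was LY96 (10.8), MYD88 (8.11), CD14 (2.44), TLR2 (2.34), TLR6 (0.727), FPR1 (0.397), TLR4 (0.117), TLR3 (0.099) and TLR1 (0.0533), and only CD14 and TLR2, and TLR4 and TLR3, overlapped with their neighbour. The upper 4 places were held by the same genes in both groups. FPR1 moved from above TLR6 to below it, and TLR4 from below TLR3 and TLR1 to overlap with TLR3 and lie above TLR1.

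**Figure D1:**
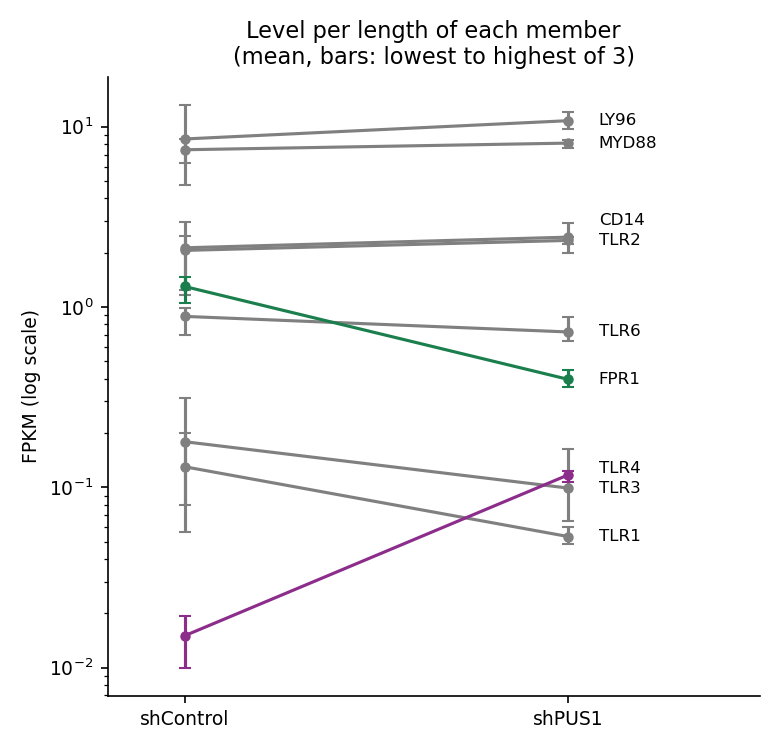
Mean FPKM (log scale) of each of the 9 members in shControl and shPUS1, with bars from the lowest to the highest of 3 libraries. TLR4 (purple) was the lowest member in shControl at 0.015 and lay at 0.117 in shPUS1, FPR1 (green) went from 1.30 to 0.397, and the 4 highest genes kept their places.

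TLR4 (ENSG00000136869), the lipopolysaccharide receptor gene, lies on the plus strand of chromosome 9 from 117704175 to 117724735 in the deposited table, whose coordinates are those of GRCh38. Its estimated counts were 2, 5 and 3 in shControl and 26, 29 and 28 in shPUS1, which corresponded to 0.131, 0.262 and 0.204 CPM against 1.45, 1.59 and 1.65 CPM. Every shPUS1 library held at least 26 counts and no shControl library more than 5, so the groups did not overlap and all the shControl values lay close to the level of 3 counts. The mean was 0.199 ± 0.0658 CPM (SD, n = 3) in shControl and 1.56 ± 0.105 CPM in shPUS1. The log2 fold change was 2.90 ± 0.42 (SE, 95% interval 1.94 to 3.87) with an adjusted p of 0.0284 by edgeR's quasi-likelihood test. From the summed counts, 83 against 10, the ratio per library size was 7.65 with an exact interval of 3.96 to 16.5 that covers counting error only.

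Without shControl replicate 2, the TLR4 log2 fold change was 3.16 (adjusted p 0.00495), and over all alternatives that gave an adjusted p it stayed between 2.69 and 3.16. The call did not hold without shControl replicate 1 (adjusted p 0.0872) or without shPUS1 replicate 1, 2 or 3 (0.167, 0.208 and 0.163), fits in which 0 to 11 genes in all were called. DESeq2 set no adjusted p for TLR4, because of its low mean count, and gave an unadjusted p of 1.74e-05. Of the 100-base stretches in the annotated TLR4 transcripts, 3.44% were also found in AL160272.2 (ENSG00000285082), a gene on the same strand that spans the TLR4 locus, and that gene was listed with 0 counts in every library.

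FPR1 (ENSG00000171051) lies on the minus strand of chromosome 19 from 51745172 to 51804110. Its counts were 57, 53 and 51 in shControl and 21, 17 and 17 in shPUS1, or 3.73, 2.78 and 3.48 CPM against 1.17, 0.930 and 1.00 CPM. The lowest shControl library held more than 2 times the CPM of the highest shPUS1 library, and the groups did not overlap. The mean was 3.33 ± 0.493 CPM (SD, n = 3) in shControl and 1.03 ± 0.122 CPM in shPUS1. The log2 fold change was -1.68 ± 0.29 (SE, 95% interval -2.35 to -1.003) with an adjusted p of 0.0392 by edgeR. DESeq2 gave an adjusted p of 0.000761 for the same gene.

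Leaving out shControl replicate 2 gave an FPR1 log2 fold change of -1.80 (adjusted p 0.00495), and its range over the alternatives was -1.80 to -1.59. The call was lost without shControl replicate 1 or 3 (adjusted p 0.0918 and 0.0528) and without shPUS1 replicate 1, 2 or 3 (0.188, 0.244 and 0.189). The span of FPR1 overlaps that of FPR2 and FPR3, which are transcribed from the other strand, and without stated strandedness reads of these genes cannot be told apart where they overlap. The deposited counts of both neighbours were low, at 0, 0 and 4 in shControl and 2, 3 and 2 in shPUS1 for FPR2, and at most 2 in any library for FPR3. A gene on the same strand whose span lies inside that of FPR1, ENSG00000286236, was listed with 0 counts in every library. No 100-base stretch of FPR1 transcripts was found in the transcripts of another gene. Transcripts were compared in their own direction only, so this search could not find overlap with FPR2 or FPR3 on the other strand.

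**Figure D2:**
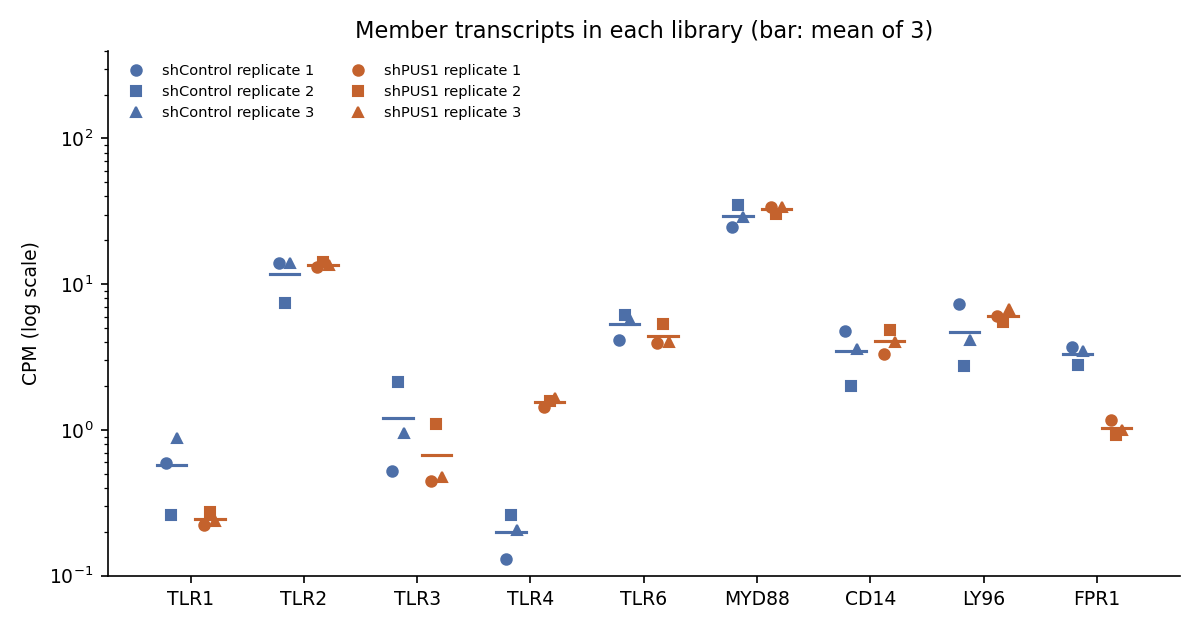
CPM (log scale) of each member in each of the 6 libraries, with a bar at the mean of 3. The shPUS1 libraries lay above all shControl libraries for TLR4 and below all of them for FPR1, and the other 7 members overlapped, with shControl replicate 2 (squares) at one end of the controls in every case.

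The TLR2 group of receptors showed no such separation. TLR2 (ENSG00000137462), on the plus strand of chromosome 4 from 153684070 to 153706260, was measured at 13.9, 7.44 and 14.0 CPM in shControl and at 13.1, 14.3 and 13.5 CPM in shPUS1. Apart from shControl replicate 2, which held the lowest level, all libraries lay within 13.1 to 14.3 CPM. The log2 fold change was 0.22 ± 0.26 (SE, 95% interval -0.38 to 0.81, adjusted p 0.618), and without shControl replicate 2 its sign turned, at -0.04. TLR6 (ENSG00000174130), a dimer partner of TLR2, was measured at 4.12, 6.13 and 5.72 CPM in shControl and 3.95, 5.31 and 4.01 CPM in shPUS1. These values overlapped, with a log2 fold change of -0.27 ± 0.25 (SE, 95% interval -0.85 to 0.32, adjusted p 0.526) and of -0.16 without shControl replicate 2. For TLR1 (ENSG00000174125), the other partner, the counts were 9, 5 and 13 in shControl and 4, 5 and 4 in shPUS1, too few for the filter on low counts. The ratio of its summed counts per library size was 0.444, with an exact interval of 0.210 to 0.890 for counting error only, and shControl replicate 2 lay within the range of the shPUS1 libraries. Fitted with no filter, the TLR1 value was -1.20 on the log2 scale (adjusted p 0.421). Without shControl replicate 2 the gene passed the filter, at -1.57 on the log2 scale (SE 0.51, adjusted p 0.0644).

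TLR1 and TLR6 lie on the minus strand of chromosome 4, TLR1 from 38790677 to 38856817 and TLR6 from 38823715 to 38856817, so that the annotated span of TLR1 contains that of TLR6. Their transcripts share 119 stretches of 100 bases, 2.48% of those of TLR1 and 1.96% of those of TLR6. The longest run shared by their coding sequences is 218 bases. Its first 90 bases, which lie in TLR1 at chr4:38797364-38797453 and in TLR6 at chr4:38827991-38828080 (GRCh38, minus strand), are shown as an example of sequence that a read of either receptor gene could match. How such reads were assigned was not tested.
TLR1 and TLR6, shared coding run: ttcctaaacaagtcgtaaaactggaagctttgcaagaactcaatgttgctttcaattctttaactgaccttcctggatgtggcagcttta

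TLR3 (ENSG00000164342), the endosomal receptor for double-stranded RNA, lies on the plus strand of chromosome 4 from 186069155 to 186088073. Its counts were 8, 41 and 14 in shControl and 8, 20 and 8 in shPUS1, or 0.524, 2.15 and 0.954 CPM against 0.445, 1.09 and 0.472 CPM. Replicate 2 was the highest of its group in both arms, and the groups overlapped. The log2 fold change was -0.86 ± 0.61 (SE, 95% interval -2.28 to 0.56, adjusted p 0.401), and it was -0.13 without shControl replicate 2. The interval of TLR3 is the widest of the 8 tested members and includes a fall of more than the threshold as well as no difference.

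The values of the co-receptor genes of TLR4 depended on shControl replicate 2. CD14 (ENSG00000170458), on the minus strand of chromosome 5 from 140631728 to 140633701, was measured at 4.78, 1.99 and 3.61 CPM in shControl and at 3.34, 4.82 and 4.01 CPM in shPUS1. Its log2 fold change was 0.24 ± 0.35 (SE, 95% interval -0.58 to 1.05, adjusted p 0.697), and -0.06 without shControl replicate 2. LY96 (ENSG00000154589) was measured at 7.27, 2.73 and 4.16 CPM in shControl and at 6.01, 5.47 and 6.79 CPM in shPUS1. The lowest and the highest of these were both shControl libraries. Its log2 fold change was 0.37 ± 0.35 (SE, 95% interval -0.44 to 1.19, adjusted p 0.527), and 0.08 without shControl replicate 2.

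MYD88 (ENSG00000172936), the adaptor gene, lies on the plus strand of chromosome 3 from 38138478 to 38143022 and was the most abundant member by CPM. It was measured at 24.5, 35.2 and 29.1 CPM in shControl and at 33.6, 30.5 and 33.8 CPM in shPUS1. All shPUS1 values fell inside the range of the controls. The log2 fold change was 0.14 ± 0.16 (SE, 95% interval -0.24 to 0.52, adjusted p 0.613), the narrowest interval among the members, and 0.28 without shControl replicate 2. At this depth a change of MYD88 by more than the calling threshold in either direction lay outside that interval.

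**Figure D3:**
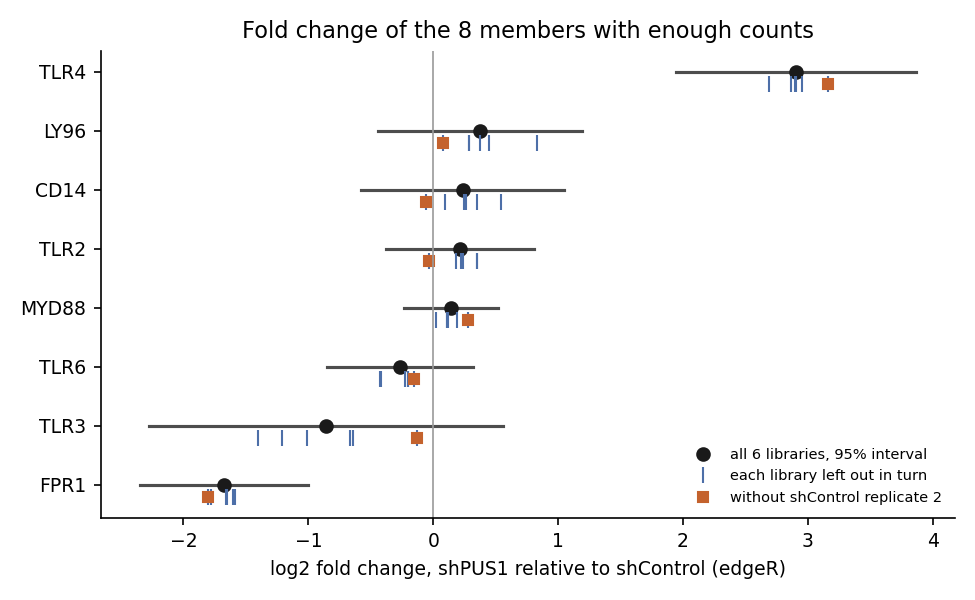
Log2 fold change of shPUS1 relative to shControl for the 8 members tested, with the 95% interval (line), the value with each library left out (ticks) and the value without shControl replicate 2 (squares). The intervals of TLR4 (1.94 to 3.87) and FPR1 (-2.35 to -1.003) lay away from 0, and those of the other 6 crossed 0.

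Promoter sequences from RefSeq (GRCh38.p14), each with 250 bases before and 50 after the start of the gene, were matched to 7 of the 9 members. TLR4, FPR1, MYD88, CD14, TLR2, TLR3 and TLR6 were found, and TLR1 and LY96 were not. Both strands were searched for NF-kappaB sites, for the AP-1 site TGANTCA and for the interferon-stimulated response element (ISRE; GAAA, any 2 bases and GAAA), which over all 35116 promoters of the table were present in 11.3%, 7.71% and 3.57%. AP-1 letters were present in FPR1 and CD14, ISRE letters in MYD88 and TLR3, and none of these motifs in TLR4, TLR2 or TLR6. No member's window held the NF-kappaB letters. A match is a description of the letters and not a bound site, and a missing match says only that the letters are absent from this window. The GC content of the TLR4 and FPR1 promoters was 48.3% each, below the median of 58.7% over all promoters, whereas MYD88 reached 65.7% and TLR2 72.7%. Windows from 120 bases before to 10 bases after the start are shown for the members called, one without and one with a motif, and for both members with an ISRE, with the motif in capitals.
TLR4 promoter, chr9:117704283-117704412, plus strand: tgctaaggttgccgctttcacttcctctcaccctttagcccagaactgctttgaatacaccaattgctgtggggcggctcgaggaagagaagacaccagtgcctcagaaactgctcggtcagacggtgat
FPR1 promoter, chr19:51751869-51751998, minus strand, AP-1: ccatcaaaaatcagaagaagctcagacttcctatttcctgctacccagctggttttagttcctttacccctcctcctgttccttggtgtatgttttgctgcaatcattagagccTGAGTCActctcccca
MYD88 promoter, chr3:38138541-38138670, plus strand, ISRE: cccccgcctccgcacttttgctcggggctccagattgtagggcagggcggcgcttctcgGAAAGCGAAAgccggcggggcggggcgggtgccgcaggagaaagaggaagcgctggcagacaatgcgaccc
TLR3 promoter, chr4:186069036-186069165, plus strand, ISRE on the other strand: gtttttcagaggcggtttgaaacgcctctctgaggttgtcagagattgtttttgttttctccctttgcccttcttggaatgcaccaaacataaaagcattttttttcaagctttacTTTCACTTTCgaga

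The remaining receptors of these families were read next. TLR5, the flagellin receptor gene, showed a log2 fold change of 0.53 ± 0.45 (SE, n = 3 per group, adjusted p 0.481 by edgeR), and TLR9, which encodes the receptor for unmethylated CpG DNA, one of -0.43 ± 0.73 (adjusted p 0.736). Both overlapped between groups, and in both shControl replicate 2 was the lowest of all 6 libraries. TLR7, TLR8 and TLR10 had at most 9, 1 and 2 counts in any library and were not tested. FPR2, FPR3, LBP, LY86, CD36 and CD180 were also too low to test. Of these, CD180 had 3, 5 and 4 counts in shControl and 9, 16 and 11 in shPUS1, whose groups did not overlap, and LY86, the partner of CD180 at the cell surface, was at 0 in every library.

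The signalling genes around the members were described with 12 lists of 139 genes, of which 113 were tested. None was called higher and 1, CSF3, was called lower, which is 0% and 0.885% of those tested against 0.888% and 0.481% of all genes. Groups did not overlap for 27 genes that were higher (23.9%) and 17 that were lower (15.0%), against 18.8% and 17.3% of all genes tested. The median log2 fold change of the lists was 0.041, beside -0.034 over all genes. These shares and medians, and those of the single lists below, include shControl replicate 2 and were not recomputed without it. Of the pathway that the deposited table itself annotates as Toll-like receptor signaling, a list added after the values were seen, 77 genes were tested and TLR4 was the only one called. Without the members, 70 genes of that pathway remained, 0 of them called by edgeR and 20 (28.6%) with an unadjusted p under 0.05, beside 25.5% of all genes tested. Of these 70, 21 were higher and 6 (8.57%) lower without overlap.

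Among the adaptors other than MYD88, none of the 5 was called. TICAM1, which encodes TRIF, was measured at 18.4, 15.0 and 21.3 CPM in shControl and 30.7, 32.4 and 33.4 CPM in shPUS1. Its log2 fold change of 0.82 (adjusted p 0.0471) was under the fold threshold, and so was that of PIK3AP1, which links Toll-like receptors to PI3K (0.98, adjusted p 0.0507). Neither gene overlapped between groups. In the module of IRAK kinases, TRAF6 and TAK1, 7 of the 15 genes tested were higher without overlap (46.7%, beside 18.8% of all genes). In the lower direction 2 had no overlap (13.3%, beside 17.3%), and none of the module was called, with a median log2 fold change of 0.20. TAB2, a subunit of the TAK1 complex, showed a log2 fold change of 0.67 (adjusted p 0.0564), and TOLLIP, an inhibitor of IRAK signalling, one of 0.42 (adjusted p 0.0759).

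Of the 16 genes of the NF-kappaB and IKK list, 2 were higher (12.5%) and 4 lower (25.0%) without overlap, and none was called. Over all genes tested these shares were 18.8% and 17.3%. CYLD, a deubiquitinase that restrains NF-kappaB, showed a log2 fold change of 0.84 (adjusted p 0.0371), and BCL3, a nuclear IkappaB protein, one of -0.73 (adjusted p 0.104). The TLR3 branch list held 8 genes, namely kinases, interferon regulatory factors and TANK, which is neither. TANK showed a log2 fold change of 0.71 (adjusted p 0.0575) and IRF1 one of -0.61 (adjusted p 0.102). In the MAP kinase arm 11 of the 12 genes had a positive log2 fold change, beside 47.3% of all genes tested, 5 of them (41.7%, beside 18.8%) had no overlap between groups, and none was called. JUN and FOS, which encode subunits of AP-1, had values of 0.40 and 0.91 (adjusted p 0.119 and 0.156). The count of signs includes shControl replicate 2, which was extreme for some of these genes in either direction. DUSP1 and MAP2K6 are named for this after their values were seen. DUSP1 (log2 fold change 0.29) was measured at 271, 32.9 and 254 CPM in shControl and 240, 233 and 209 CPM in shPUS1. MAP2K6 (-1.17) was measured at 0.327, 3.15 and 1.02 CPM in shControl and 0.668, 0.876 and 0.472 CPM in shPUS1.

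The 16 inflammatory target genes tested had a median log2 fold change of -0.31, beside -0.034 over all genes. This median includes shControl replicate 2, which was far from the other controls for several of these genes. Named after their values were seen, IL1B, IL6, CXCL8 and SOD2 had their lowest level of all libraries in it, and CSF2 and TNFAIP2 their highest. IL6 was measured at 63.6, 7.81 and 49.6 CPM in shControl, and CSF2 at 9.03, 17.1 and 8.65 CPM. Without overlap, 3 were higher (18.8%) and 5 lower (31.2%), beside 18.8% and 17.3% of all genes tested. CSF3 was measured at 26.0, 31.9 and 28.4 CPM in shControl and at 11.9, 14.3 and 13.3 CPM in shPUS1. All shPUS1 libraries lay below all shControl libraries, and CSF3 fell by 1.13 on the log2 scale (SE 0.16, n = 3 per group, adjusted p 0.0248 by edgeR). Its call was kept without shControl replicate 2 (adjusted p 0.00172) and lost without shControl replicate 1 (0.0681) or shPUS1 replicate 1, 2 or 3 (0.171, 0.188 and 0.163). CCL20, a chemokine gene named here after its values were seen, was called only without shControl replicate 2, with a log2 fold change of -1.56 (adjusted p 0.00358) against -1.01 (0.41) with all libraries. HSPD1, from the list of endogenous Toll-like receptor ligands, was called only without shControl replicate 3, at -1.07 (adjusted p 0.0453), against -0.86 (0.0782) with all libraries.

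The other lists held no called gene. Interleukin-1 and interleukin-18 receptors, which share the MyD88 pathway, had 4 genes tested, and IL1R1 was measured at 29.1, 16.8 and 30.5 CPM in shControl and 46.9, 52.9 and 41.4 CPM in shPUS1 (log2 fold change 0.89, adjusted p 0.0792). The co-receptors, chaperones and regulators had 7 genes tested, with values of 0.40 for RNF216 and 0.28 for TMED7 (adjusted p 0.104 and 0.172). HAS2, which makes hyaluronan, showed a log2 fold change of -0.81 (adjusted p 0.0578). GNAI2, a G protein subunit that couples to formyl peptide receptors, had one of -0.10 (adjusted p 0.605). It was the only one of the 8 genes tested in its list whose groups did not overlap. That is 12.5%, in the lower direction, beside 17.3% of all genes tested. Of the 11 other pattern recognition receptors, DDX58, which encodes the cytosolic RNA sensor RIG-I, was measured at 56.8, 57.8 and 56.2 CPM in shControl and at 109, 103 and 105 CPM in shPUS1. The DDX58 groups were far apart relative to their spread, at a log2 fold change of 0.90 (SE 0.11, adjusted p 0.0214) that did not reach the fold threshold, whereas IFIH1, which encodes the related sensor MDA5, had a value of -0.52 (adjusted p 0.147).

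**Figure D4:**
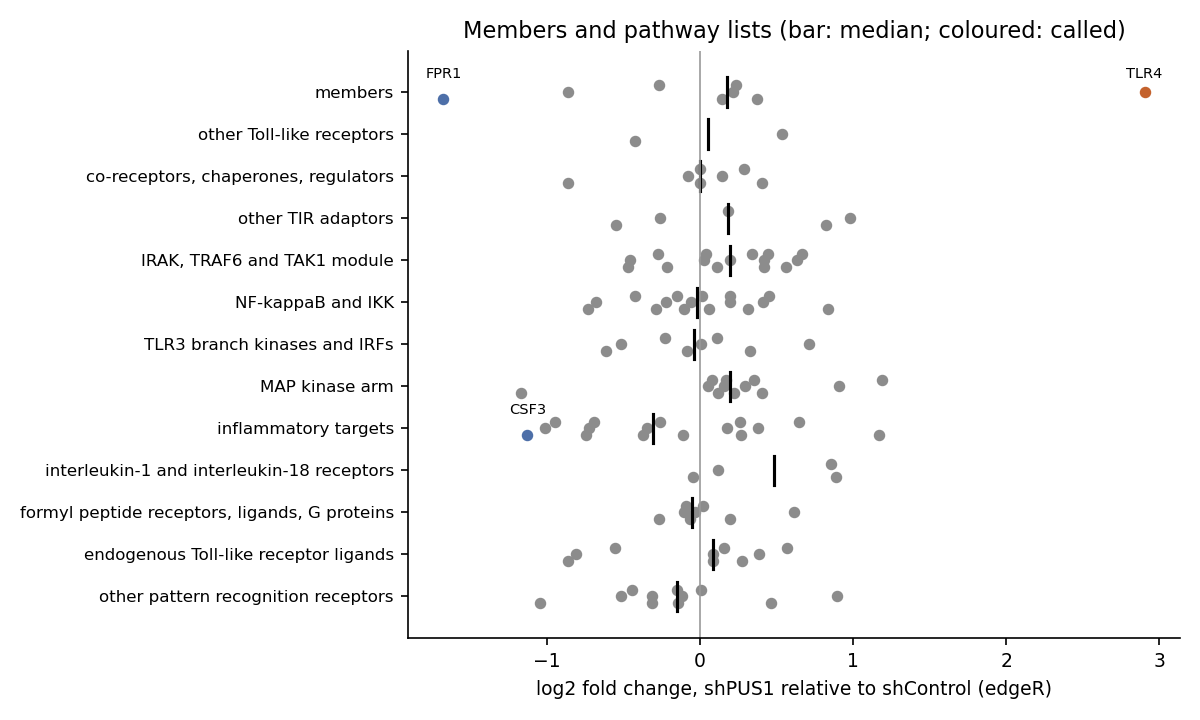
Log2 fold change of each tested gene (points) of the members and of 12 lists of related genes, with the median of each list as a bar and called genes in colour. TLR4 (2.90) and FPR1 (-1.68) lay farther from 0 than every gene of the 12 lists, in which CSF3 (-1.13) was the only one called. The members were chosen from results of this same contrast, so nothing is read from their place beside the lists.

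The genes whose log2 CPM was most like that of the called members over the 6 libraries were taken from 12125 genes with a mean of at least 1 CPM. For TLR4 they were FRMD5 (r = 0.9977), USP43 (0.9976) and PAQR3 (0.9971), and 641 genes, 5.29%, reached at least 0.9. For FPR1 they were SMAP2 (r = 0.9984), WDR54 (0.9943) and TNFRSF1A (0.9937), and 401 genes, 3.31%, reached at least 0.9. These correlations are descriptions over 6 points in 2 groups of libraries, and most of each lies in the step between shControl and shPUS1. The size of the step was much smaller in the like genes, with log2 fold changes of 0.39 for FRMD5, 0.41 for USP43 and 0.51 for PAQR3 beside 2.90 for TLR4, and of -0.41 for SMAP2, -0.67 for WDR54 and -0.52 for TNFRSF1A beside -1.68 for FPR1.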

How the data were processed

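Poly(A) RNA of 3 shControl and 3 shPUS1 libraries was sequenced in pairs and aligned with HISAT2, and expression was taken from HTSeq 0.6.1, per the submitters' processing notes. The deposited estimated counts per gene were made by the authors without normalization, and 29.8 to 31.8% of values above 0 were not whole. The deposited FPKM values were made by the authors from these counts, the exonic length and the library total. FPKM was recomputed here at full precision by the same formula and differed from the deposited values by at most 0.005. The genome build, annotation release and strandedness are not given in the sources used here, but the coordinates of 5 of the 9 members equal those of GENCODE release 29 (GRCh38). No per-sample column was left out.

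After rounding to whole counts, filterByExpr kept 14748 genes with 99.85 to 99.89% of counts, which were scaled by TMM (factors 0.973 to 1.032). The groups were compared across all genes by edgeR 4.0.16 (R 4.3.3), by its quasi-likelihood test with Benjamini-Hochberg adjustment. The standard error was taken as the absolute log2 fold change divided by the square root of F. The biological coefficient of variation was 0.2197. Every adjusted p in the text is from this test unless another tool is named. Intervals from summed counts are exact and cover counting error only, since reads carry no molecular identifiers. DESeq2 1.42.0 and limma 3.58.1 gave alternatives, and Python 3.11.15 with pandas 2.3.3, numpy 2.4.6, scipy 1.17.1 and, for plots, matplotlib 3.10.9 did the rest.

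The members, the 12 lists and the markers were chosen with earlier results of these data known. A marker gene is not reported here. The genes named were PUS1, the members, called genes of each list (up to 4), in lists without one the 2 tested genes without overlap that had the smallest p, genes most like the called members, and neighbours that overlap a member. Likeness was Pearson's r of log2(CPM + 0.1). Alternatives were DESeq2 size factors, library totals without TMM, no filter, DESeq2, limma on log2(FPKM + 1) and log2(FPKM + 0.1) where the mean FPKM was 1 or more, a replicate block, no fold threshold and each library left out in turn. Residuals of libraries with the same replicate number had correlations of -0.0529, -0.0256 and -0.19, so no positive correlation by number was seen. Whether libraries of the same number shared a culture or preparation is not stated and cannot be settled from 3 libraries per group.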

Additional observations from a re-analysis of the deposited data

How the results depend on the processing

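Over all genes, 131 were called higher and 71 lower. The counts were 293 and 243 with no filter on low counts, 245 and 233 with DESeq2, 256 and 124 with no fold threshold, 71 and 16 with limma on log2(FPKM + 1) and 68 and 44 on log2(FPKM + 0.1). With a library left out they ran from 0 to 246 and from 0 to 251, highest without shControl replicate 2, and 0 without shPUS1 replicate 3, where edgeR gave 2581 genes an unadjusted p under 0.05 against 3758 with all libraries. Members called were 2 with edgeR, 1 with DESeq2, which set no adjusted p for TLR4 or TLR3, 0 with limma at either pseudocount, since TLR4 and FPR1 had a mean FPKM under its filter and were not fitted, and 0 to 2 with a library left out. Genes called in the 12 lists were 1 (CSF3), 2 with no filter (ATF3 added, log2 fold change 1.19, chosen after its value was seen), 4 with no fold threshold and 0 to 2 with a library left out.

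With the replicate block, for which the residuals showed no positive correlation, 18 genes were called higher and 0 lower, with 0 members and 0 genes of the lists. The adjusted p was then 0.0916 for TLR4 and 0.119 for FPR1, and the cause was not tested. With a library left out, TLR2 ran from -0.038 to 0.352 and CD14 from -0.057 to 0.542, both negative only without shControl replicate 2. Of 94 alternatives for single members, 81 kept direction and side of the threshold, 11 lost a call of TLR4 or FPR1 and 2 turned sign. Most of the 94 were for members that had no call to lose. TLR4 kept its call in 5 of its 10 alternatives and FPR1 in 5 of its 11. TLR4 rests on 10 counts in all shControl libraries and TLR1 on 27, so their levels in control cells are imprecise.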
